A study of Homo sapiens with 18 samples.

Results

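Chromosome 1q43-q44 carries, from the centromere outwards, the genes CEP170, SDCCAG8, ZBTB18, DESI2, COX20, HNRNPU, EFCAB2, KIF26B and SMYD3. These 9 genes, of 54425 in the table, were taken by symbol as neighbours on 1 segment, chosen by the lower counts of DESI2 and COX20 in cells with both t(4;11) fusions, against cells with 1 fusion, in these same libraries. The question was whether the lower counts are shared along the segment on each day. Because the differences between co-expression cells and single-fusion cells led to the choice of these genes, they are given here as levels and differences. How many of them passed a threshold is given beside the same share of all genes, and nothing is read from it. The closing section gives these numbers again under other settings, as a description only.

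The counts came from ATAC-seq, in which a transposase cuts into open DNA, so that a gene's count is a measure of how accessible its DNA is and not of its transcripts. The material was HEK293T, a human embryonic kidney line, transfected with Sleeping Beauty transposon vectors carrying fusions of KMT2A (MLL) and AFF1 (AF4). MLL-AF4 cells carried inducible MLL-AF4, AF4-MLL cells carried inducible AF4-MLL, and co-expression cells carried constitutive MLL-AF4 together with inducible AF4-MLL. The labels call the cells stably transfected, while by the study's methods only MLL-AF4 was stable in co-expression cells, and AF4-MLL was added to them transiently and lost once its selection ended. Doxycycline (1 µg/ml, 48 h) induced every inducible construct, and each of the 3 settings was sampled on day 3 and on day 28 with 3 libraries, 18 in all. MLL-AF4 was thus driven by a constitutive vector in co-expression cells and by an inducible one in MLL-AF4 cells, so that the vector and the presence of a second fusion cannot be told apart. Cells without a fusion were not analysed here. The labels number the libraries as biological replicates but do not say how the cultures were kept apart, and p-values measure the spread between these libraries.

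The genes of the segment do different jobs and share no pathway. DESI2 encodes a small protein of the deSUMOylating isopeptidase family, named for the removal of the ubiquitin-like modifier SUMO. COX20 is a chaperone that holds subunit COX2 while complex IV of the respiratory chain is assembled, and HNRNPU (SAF-A) is an abundant nuclear protein that binds both RNA and chromatin. CEP170 and SDCCAG8 are proteins of the centrosome and the base of the cilium, ZBTB18 is a zinc finger repressor important in the developing brain, EFCAB2 is listed by RefSeq as DRC8, a subunit of the dynein regulatory complex of motile cilia, KIF26B belongs to the kinesin family and SMYD3 is a lysine methyltransferase. DNA is most accessible at active promoters, and promoters of broadly used genes are often rich in CpG.

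The windows of 250 bases upstream of the start, as RefSeq gives them for GRCh38.p14, are shown 5′ to 3′ in the gene's own direction for DESI2, COX20 and HNRNPU, which were lower in co-expression cells on both days, and for CEP170 and SDCCAG8, whose promoter entries start from opposite strands 760 bases apart. The CEP170 window lies inside the RefSeq span of that gene, which ends 255 bases before the span of SDCCAG8 begins. Capitals mark the GC box, GGGCGG on either strand.
DESI2, chr1:244652876-244653125, plus strand: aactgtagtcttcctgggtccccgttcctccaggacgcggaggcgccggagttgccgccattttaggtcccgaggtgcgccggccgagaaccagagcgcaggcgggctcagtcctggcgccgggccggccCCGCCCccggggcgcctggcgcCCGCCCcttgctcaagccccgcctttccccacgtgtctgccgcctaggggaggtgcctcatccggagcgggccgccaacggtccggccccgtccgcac
COX20, chr1:244835056-244835305, plus strand: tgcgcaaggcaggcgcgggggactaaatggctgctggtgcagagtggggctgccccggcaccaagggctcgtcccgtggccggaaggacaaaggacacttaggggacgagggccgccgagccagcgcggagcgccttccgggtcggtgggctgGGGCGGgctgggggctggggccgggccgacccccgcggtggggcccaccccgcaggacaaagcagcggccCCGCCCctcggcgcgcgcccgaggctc
HNRNPU, chr1:244864544-244864793, minus strand: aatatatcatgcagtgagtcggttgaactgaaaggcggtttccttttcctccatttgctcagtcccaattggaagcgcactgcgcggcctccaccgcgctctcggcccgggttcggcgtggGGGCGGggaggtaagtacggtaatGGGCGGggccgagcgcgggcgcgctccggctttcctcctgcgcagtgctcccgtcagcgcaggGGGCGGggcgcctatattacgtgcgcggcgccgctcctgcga
CEP170, chr1:243255282-243255531, minus strand: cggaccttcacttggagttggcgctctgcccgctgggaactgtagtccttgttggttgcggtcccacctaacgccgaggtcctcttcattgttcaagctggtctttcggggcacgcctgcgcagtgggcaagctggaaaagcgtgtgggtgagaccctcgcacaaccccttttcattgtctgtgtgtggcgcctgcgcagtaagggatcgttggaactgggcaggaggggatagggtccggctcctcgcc
SDCCAG8, chr1:243255791-243256040, plus strand: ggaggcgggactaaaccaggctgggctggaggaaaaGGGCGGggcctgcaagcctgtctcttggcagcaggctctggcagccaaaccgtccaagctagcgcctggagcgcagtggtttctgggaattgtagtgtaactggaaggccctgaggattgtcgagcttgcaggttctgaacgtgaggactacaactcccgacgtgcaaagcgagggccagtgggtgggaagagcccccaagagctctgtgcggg
The DESI2 window held 2 GC boxes and 30 CpG in 74.4% GC, the COX20 window 2 GC boxes and 28 CpG in 76.8% GC, and the HNRNPU window 3 GC boxes and 31 CpG in 66.0% GC. The SDCCAG8 window held 1 GC box and the CEP170 window none. Windows were found for 8 of the 9 genes, and 6 of these 8 held a GC box, against 42.2% of 27303 RefSeq promoter windows of the same length. The letters TGCGCA, searched on both strands, stood in 5 of the 8 against 7.08% of all windows, ACTACA in 3 against 7.75%, and CCAAT in 2 against 33.0%. These motifs were picked after the windows had been read, and a match describes letters only. EFCAB2 stood apart with 36.8% GC and 8 CpG, where the median window held 57.6% GC and 10 CpG.

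The libraries held 442159 to 3539937 counts, of which 32.7% to 68.5% lay on mitochondrial genes, and 284374 to 895319 counts remained on nuclear genes without nuclear copies of mitochondrial DNA. The mitochondrial share was similar in the 3 settings on day 28, at means of 65.0% to 65.5%, and had means of 38.3% (AF4-MLL), 39.4% (co-expression) and 43.96% (MLL-AF4) on day 3. KMT2A, which supplies part of each construct, lay at 83.0 to 108 normalised counts (CPM, scaled to library size) in AF4-MLL libraries of both days. MLL-AF4 libraries had 27.7 to 40.2 CPM on day 3 and 43.5 to 47.0 CPM on day 28. Co-expression libraries had 47.3 to 57.4 CPM on day 3 and 59.8 to 79.9 CPM on day 28. They thus were not lower on day 28, although AF4-MLL was described as lost, and the reason was not tested. Of the kidney and embryonic markers, VIM had 53.0 to 104 CPM and PAX2 7.51 to 23.3 CPM. Of the blood and liver markers, CD33, CD3E and ALB stayed between 0 and 5.22 CPM, while PTPRC and APOA1 had 6.85 to 34.2 CPM. The 5 markers of the line summed to 128 to 175 CPM and the 5 others to 34.0 to 56.7 CPM, with VIM as the largest part of the first sum. The line markers LHX1, NEFM and CDH2 had 7.67 to 37.6 CPM. That range overlaps the range of PTPRC and APOA1, so these levels do not identify the cells. All 9 genes of the segment passed the filter on low counts, with median counts per library from 11 for ZBTB18 to 134.5 for HNRNPU. Normalised counts use TMM-scaled library sizes, and since gene lengths were not applied, levels are compared between libraries and not between genes.

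COX20 was lower in co-expression cells on both days. On day 3 the 3 co-expression libraries had 50.0, 42.5 and 58.7 CPM, against 77.0, 86.3 and 84.4 CPM in MLL-AF4 cells and 72.9, 83.9 and 78.6 CPM in AF4-MLL cells. On day 28 they had 53.1, 44.8 and 65.1 CPM, against 72.5, 80.9 and 77.9 CPM in MLL-AF4 cells and 89.2, 85.6 and 83.0 CPM in AF4-MLL cells. Every one of the 6 co-expression libraries lay below every one of the 12 single-fusion libraries. The log2 difference was −0.70 (SE 0.15) to MLL-AF4 and −0.61 (SE 0.14) to AF4-MLL on day 3, and −0.57 (SE 0.14) and −0.72 (SE 0.13) on day 28. In terms of levels, COX20 was 32.4% to 39.1% lower. When the 6 groups were ranked, the single gap larger than the spread within the groups on either side of it lay between MLL-AF4 cells on day 28, at 77.1 ± 4.24 CPM (SD, n = 3), and co-expression cells on day 28, at 54.4 ± 10.2 CPM.

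HNRNPU, whose span on the minus strand lies 5233 bases beyond the end of COX20 without overlapping it, showed the same separation with less scatter. Its co-expression libraries had 88.7, 93.2 and 87.4 CPM on day 3 and 87.0, 84.7 and 90.4 CPM on day 28. The MLL-AF4 libraries had 131.7, 130.7 and 111.0 CPM on day 3 and 130.2, 113.2 and 118.1 CPM on day 28, and the AF4-MLL libraries 131.0, 118.6 and 117.9 CPM and 132.2, 127.6 and 134.6 CPM. The groups did not overlap on either day. Log2 differences were −0.47 (SE 0.13) and −0.46 (SE 0.12) on day 3 and −0.47 (SE 0.12) and −0.60 (SE 0.11) on day 28, to MLL-AF4 and AF4-MLL cells respectively. The means fell into 2 sets, 87.3 to 89.8 CPM in co-expression cells and 120.5 to 131.5 CPM in the other 4 groups, and no other neighbouring pair of group means lay further apart than the spread within the groups.

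DESI2 was lower in co-expression cells too, but its level also differed among the single-fusion groups. On day 3 co-expression libraries had 82.7, 41.0 and 90.9 CPM, AF4-MLL libraries 92.1, 122.9 and 103.3 CPM and MLL-AF4 libraries 135.0, 120.5 and 139.9 CPM. On day 28 they had 68.2, 68.5 and 62.5 CPM, 108.7, 90.05 and 87.9 CPM, and 76.6, 94.3 and 89.5 CPM. Co-expression libraries lay below both single-fusion groups of their day, narrowly on day 3, where the highest had 90.9 CPM and the lowest of the other 6 had 92.1 CPM. The log2 difference to MLL-AF4 was −0.87 (SE 0.13) on day 3, a level 45.2% lower, and −0.38 (SE 0.13) on day 28. To AF4-MLL it was −0.50 (SE 0.13) on day 3 and −0.51 (SE 0.13) on day 28. The second co-expression library of day 3, at 41.0 CPM, was the lowest of all 18, and without it the day 3 differences were −0.60 to MLL-AF4 and −0.23 to AF4-MLL. In the order of group means only the gap between MLL-AF4 cells on day 3, at 131.8 ± 10.1 CPM, and AF4-MLL cells on day 3, at 106.1 ± 15.6 CPM, exceeded the spread of the groups beside it.

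**Figure D1:**
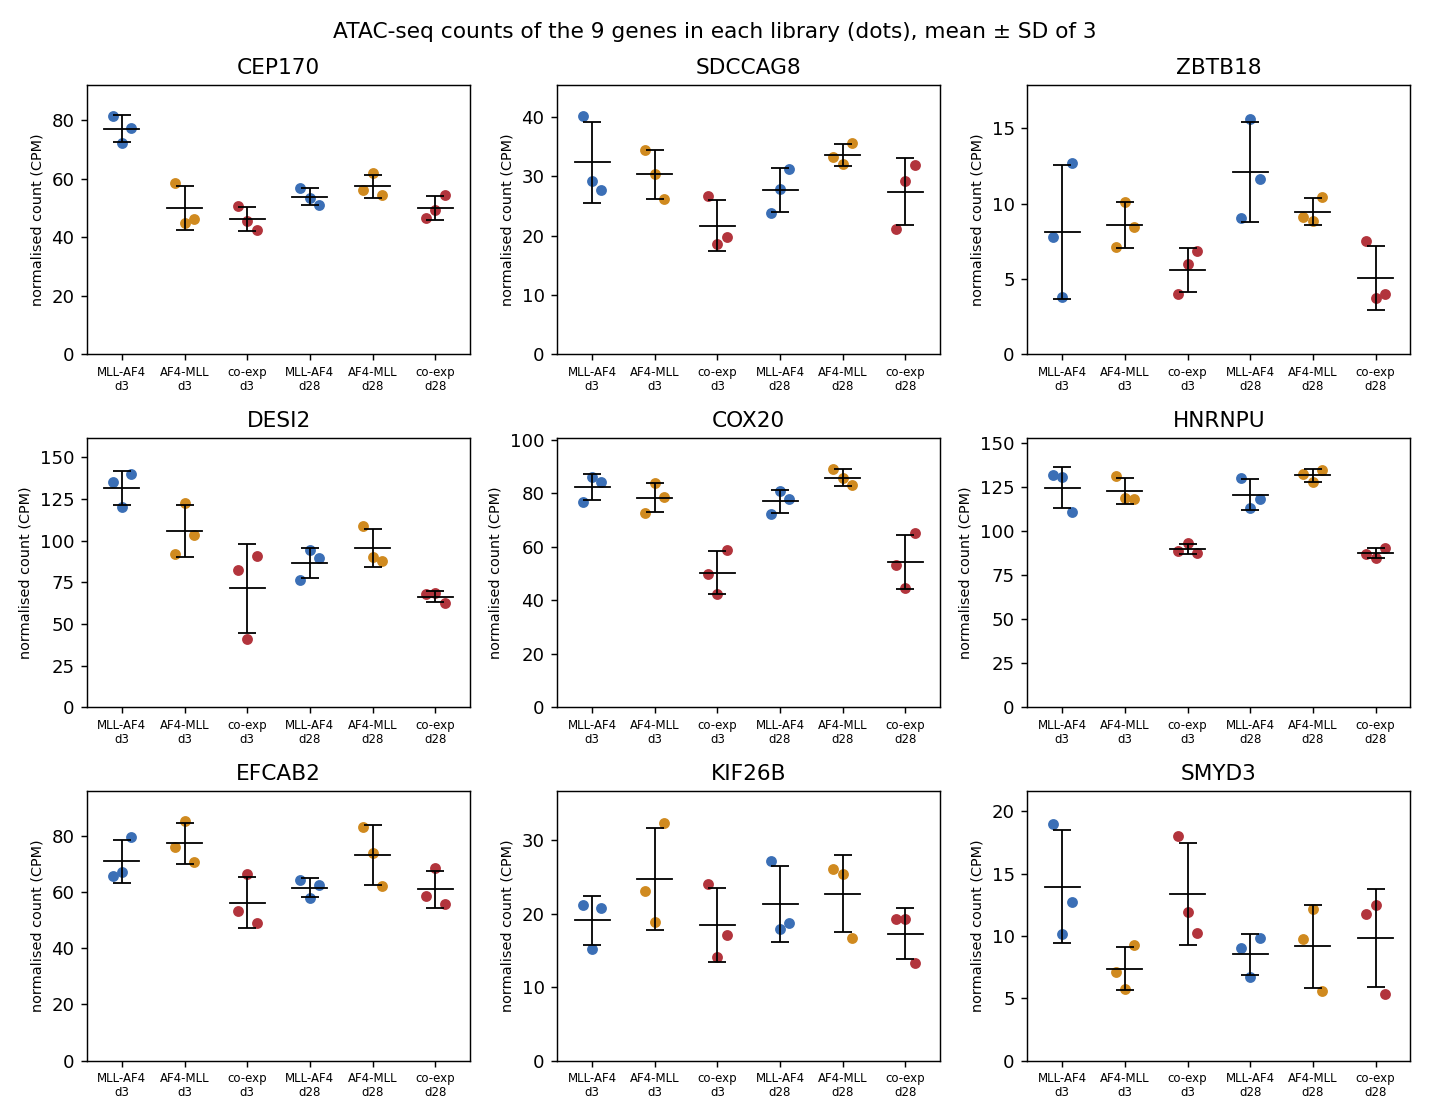
Normalised ATAC-seq counts (CPM, vertical axis from 0) of each of the 9 genes in the 6 groups, with 1 dot per library and the mean ± SD of 3 libraries. For COX20 and HNRNPU the co-expression dots (red) lie below all single-fusion dots on both days, at 42.5 to 65.1 CPM and 84.7 to 93.2 CPM, while for SMYD3 they lie above those of AF4-MLL cells on day 3 and overlap the others.

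On the centromeric side of DESI2 the co-expression libraries were lower less evenly. CEP170 had 50.7, 45.5 and 42.4 CPM in co-expression cells on day 3, 58.6, 44.8 and 46.2 CPM in AF4-MLL cells and 81.5, 72.3 and 77.4 CPM in MLL-AF4 cells, so that the MLL-AF4 libraries stood alone above the rest. Its log2 difference was −0.74 (SE 0.15) to MLL-AF4 cells and −0.16 (SE 0.15) to AF4-MLL cells. On day 28 all 9 libraries lay between 46.5 and 61.9 CPM and the differences were −0.14 (SE 0.15) and −0.24 (SE 0.14). For CEP170 the lower value in co-expression cells was therefore seen against a single group.

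SDCCAG8 had 26.7, 18.6 and 19.8 CPM in co-expression cells on day 3, with 27.7 to 40.2 CPM in MLL-AF4 and 26.2 to 34.5 CPM in AF4-MLL libraries. On day 28 it had 21.2, 29.3 and 31.9 CPM, with 23.9 to 31.3 and 32.0 to 35.6 CPM in the other 2 groups. Its log2 differences were −0.57 (SE 0.23) and −0.50 (SE 0.21) on day 3 and −0.09 (SE 0.20) and −0.36 (SE 0.19) on day 28, to MLL-AF4 and AF4-MLL cells in that order. The span of SDCCAG8 overlaps 4 other RefSeq genes, and those of DESI2, HNRNPU, EFCAB2, KIF26B and SMYD3 overlap 1, 2, 5, 4 and 5. Reads in an overlap cannot be assigned to one gene without knowing the counted region. ZBTB18 was covered by 3 to 28 counts per library, and its differences of −0.55 (SE 0.45), −0.54 (SE 0.41), −1.16 (SE 0.36) and −0.76 (SE 0.37), in the order day 3 to MLL-AF4 and AF4-MLL and day 28 to MLL-AF4 and AF4-MLL, are the least precise of the 9. On day 28 its co-expression libraries had 7.52, 3.74 and 3.99 CPM, all below the 8.84 to 15.6 CPM of the 6 single-fusion libraries.

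In the 3 genes towards the telomere the co-expression libraries were lower less evenly or not at all. EFCAB2 had 53.3, 66.4 and 49.2 CPM in co-expression cells on day 3 against 65.8 to 79.8 CPM in MLL-AF4 and 70.9 to 85.3 CPM in AF4-MLL cells, with log2 differences of −0.34 (SE 0.15) and −0.44 (SE 0.14). On day 28 its libraries overlapped in both comparisons, with differences of 0.01 (SE 0.14) and −0.25 (SE 0.13). KIF26B overlapped in all 4 comparisons, with differences from −0.45 (SE 0.23) to −0.05 (SE 0.27) at 13.3 to 32.4 CPM. SMYD3, the outermost gene, had differences on both sides of 0. It had 18, 11.9 and 10.2 CPM in co-expression cells on day 3, all above the 7.12, 5.79 and 9.25 CPM of AF4-MLL cells, with a difference of 0.82 (SE 0.34). To MLL-AF4 cells on the same day, at 19.0, 10.1 and 12.7 CPM, it differed by −0.07 (SE 0.32), and on day 28 by 0.39 (SE 0.34) to MLL-AF4 and 0.21 (SE 0.32) to AF4-MLL cells, all with overlapping libraries. SMYD3 rested on 4 to 27 counts per library.

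In the 4 comparisons by which the genes were chosen, the counts past a threshold were set by that choice and are a description only. At an edgeR adjusted p under 0.05, 4 of the 9 genes were lower in co-expression cells than in MLL-AF4 cells on day 3, where 0.906% of all 17660 genes tested were called lower. Against AF4-MLL cells on day 3 there were 3, beside 0.798% of all genes. On day 28 there were 2 against MLL-AF4 cells, beside 0.753%, and 3 against AF4-MLL cells, beside 0.991%. 0 of the 9 were called higher, beside 0.900%, 0.481%, 0.413% and 0.702% of all genes. All 3 co-expression libraries lay below all 3 of the other group for 5, 5, 4 and 5 of the 9 genes in the same order, where 9.09%, 8.12%, 8.23% and 8.40% of all genes tested did so. The medians of the 9 differences were −0.55, −0.46, −0.20 and −0.36, and those of all genes tested lay between −0.00 and 0.01. The 2 comparisons of a day share their co-expression libraries.

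**Figure D2:**
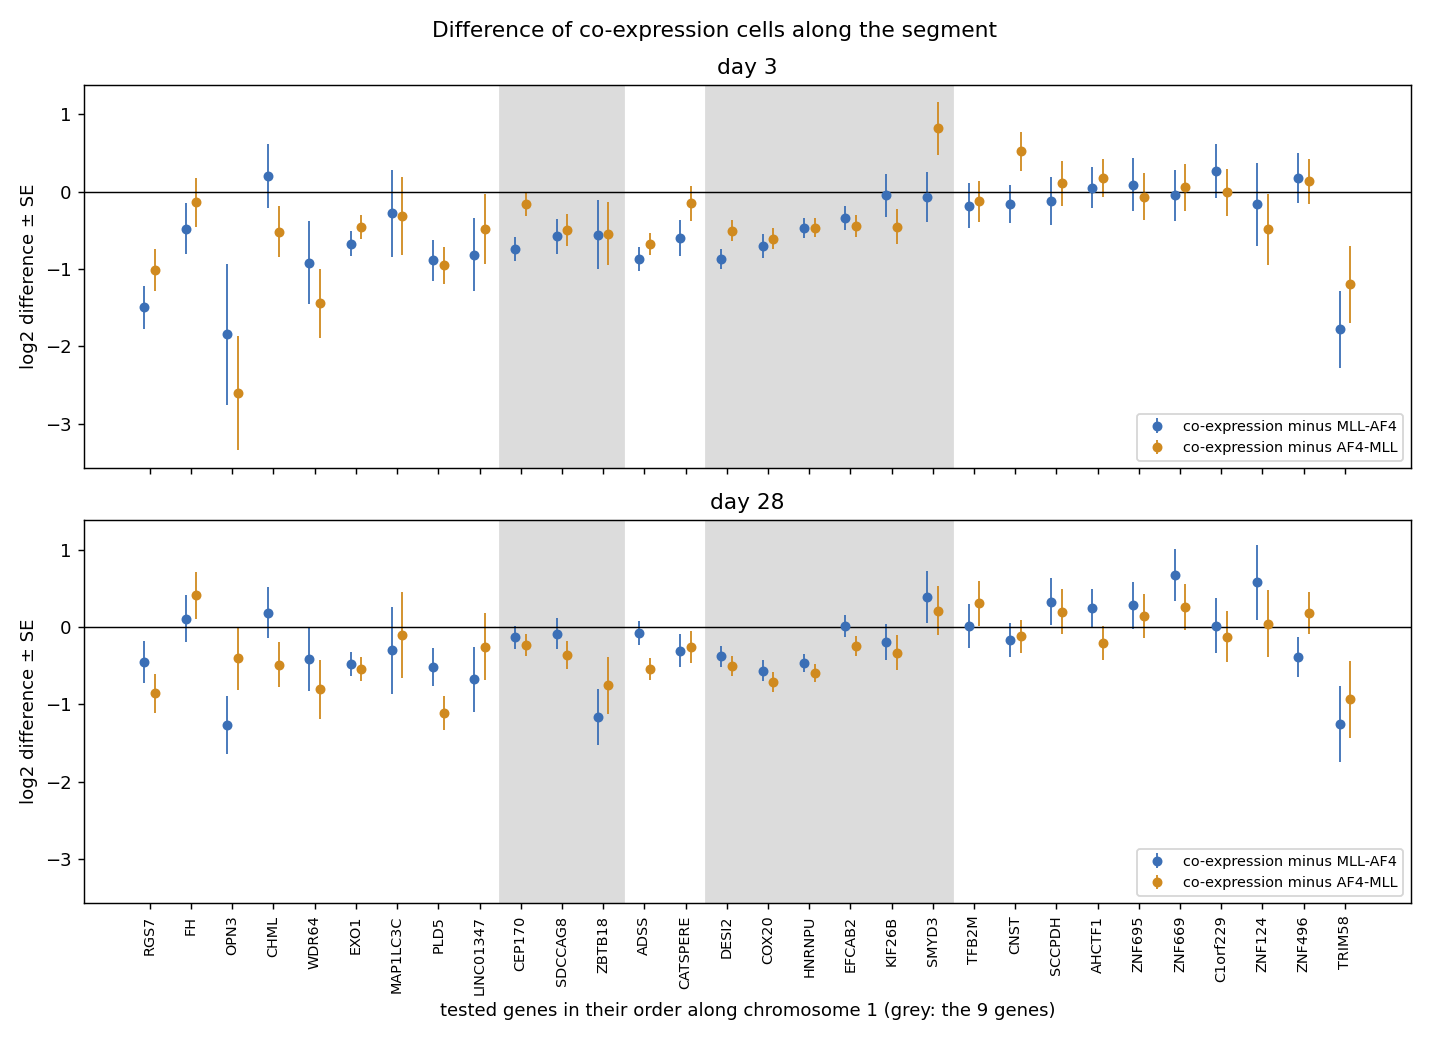
Log2 difference of co-expression cells (vertical axis, ± SE) to MLL-AF4 cells (blue) and to AF4-MLL cells (orange) for the tested genes reported here in their order along chromosome 1, on day 3 above and on day 28 below, with the 9 genes on grey. Most values lie below 0 from the left edge to HNRNPU, and the 10 genes beyond SMYD3 scatter around 0 with medians of −0.08 and 0.03 on day 3 and 0.13 and 0.09 on day 28.

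The tested genes around the 9 describe how far the lower counts reached, in the same 4 comparisons by which the segment was chosen. Except for CATSPERE, these genes are named because they were called there, so their adjusted p-values are a description and not a test. Between CEP170 and SMYD3, 2 other tested genes are reported, ADSS, an enzyme of AMP synthesis (adenylosuccinate synthase), and CATSPERE, a subunit of the sperm calcium channel. ADSS was called lower in 3 of the 4 comparisons, by −0.87 (SE 0.15, edgeR adjusted p 0.00011) and −0.67 (SE 0.15, adjusted p 0.0027) on day 3 and −0.54 (SE 0.14, adjusted p 0.015) against AF4-MLL cells on day 28, and differed by −0.08 (SE 0.15) from MLL-AF4 cells on day 28. CATSPERE, named here after its values were seen, passed in none, with differences of −0.60 to −0.15.

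The 9 tested genes reported on the centromeric side had median differences of −0.81 and −0.52 on day 3 and −0.46 and −0.49 on day 28, to MLL-AF4 and AF4-MLL cells. Of these, 3, 3, 0 and 3 were called lower, beside 0.906%, 0.798%, 0.753% and 0.991% of all genes tested, as a description only. RGS7, a regulator of G protein signalling, was lower by −1.50 (SE 0.28, adjusted p 0.00016) and −1.01 (SE 0.27, adjusted p 0.028) on day 3 and by −0.86 (SE 0.25, adjusted p 0.046) against AF4-MLL cells on day 28. PLD5, a member of the phospholipase D family, was lower than in MLL-AF4 cells on day 3 by −0.89 (SE 0.26, adjusted p 0.048) and than in AF4-MLL cells by −0.95 (SE 0.24, adjusted p 0.015) on day 3 and −1.12 (SE 0.22, adjusted p 0.00037) on day 28. The exonuclease gene EXO1 was lower than in MLL-AF4 cells on day 3 by −0.67 (SE 0.16, adjusted p 0.008) and than in AF4-MLL cells on day 28 by −0.54 (SE 0.15, adjusted p 0.032). The opsin gene OPN3 was called lower than in AF4-MLL cells on day 3 (adjusted p 0.042) on 1 count in each co-expression library against 3 to 8 counts.

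The 10 tested genes on the telomeric side did not share the difference. Their medians were −0.08, 0.03, 0.13 and 0.09, and 1 of them was called in 1 comparison, TRIM58, lower by −1.78 (SE 0.49, adjusted p 0.031) than in MLL-AF4 cells on day 3, on 2 to 8 counts per library against 5 to 13.

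In blocks of 25 neighbouring tested genes along the whole chromosome, 1632 genes in 66 blocks, the 9 genes lay in an unbroken run of 15 full blocks whose median difference to AF4-MLL cells on day 3 was below 0. The run held 375 genes from ABL2, which starts at position 179099330, to ZNF124, which ends at 247172379 (RefSeq, GRCh38.p14), and was drawn from those day 3 values, which are therefore a description. The last block of the run spans WDR64 to ZNF124. It holds the 9 genes and also genes of the telomeric side, from TFB2M to ZNF124, so the lower counts need not reach the run's end. Against AF4-MLL cells on day 3 the block medians of the run went from −0.62 to −0.17. The day 28 comparisons use other libraries, but these also served in the choice of the genes around which the run was drawn. On day 28, 15 of the 15 blocks were below 0 against AF4-MLL cells, with medians from −0.55 to −0.15. Of the 51 blocks outside, 13 were below 0. Against MLL-AF4 cells on day 28 the 15 medians ran from −0.39 to −0.13, and 24 of the 51 outside were below 0, down to −0.15. Against MLL-AF4 cells on day 3 they ran from −0.62 to −0.15, and 19 of the 51 outside were below 0, down to −0.30, so that in these comparisons with MLL-AF4 cells the 2 ranges overlapped.

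Gene by gene, the median difference over the run was −0.37 and −0.32 on day 3 and −0.24 and −0.38 on day 28, to MLL-AF4 and AF4-MLL cells, against 0.04, 0.04, 0.01 and 0.05 over the 1257 other tested genes of chromosome 1. Of the 375 genes, 35, 29, 17 and 41 were called lower in the 4 comparisons (9.33%, 7.73%, 4.53% and 10.9%) and 0 higher. Among all genes tested 0.906%, 0.798%, 0.753% and 0.991% were called lower. Of the 1257 genes outside the run 7, 2, 6 and 6 were called lower and 6, 4, 2 and 6 higher. The 375 include the 9 genes, and the run was drawn from 1 of these comparisons, so the counts are a description. The medians of the 9 genes were thus lower than the median of their run in the 2 comparisons of day 3, and close to it on day 28.

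**Figure D3:**
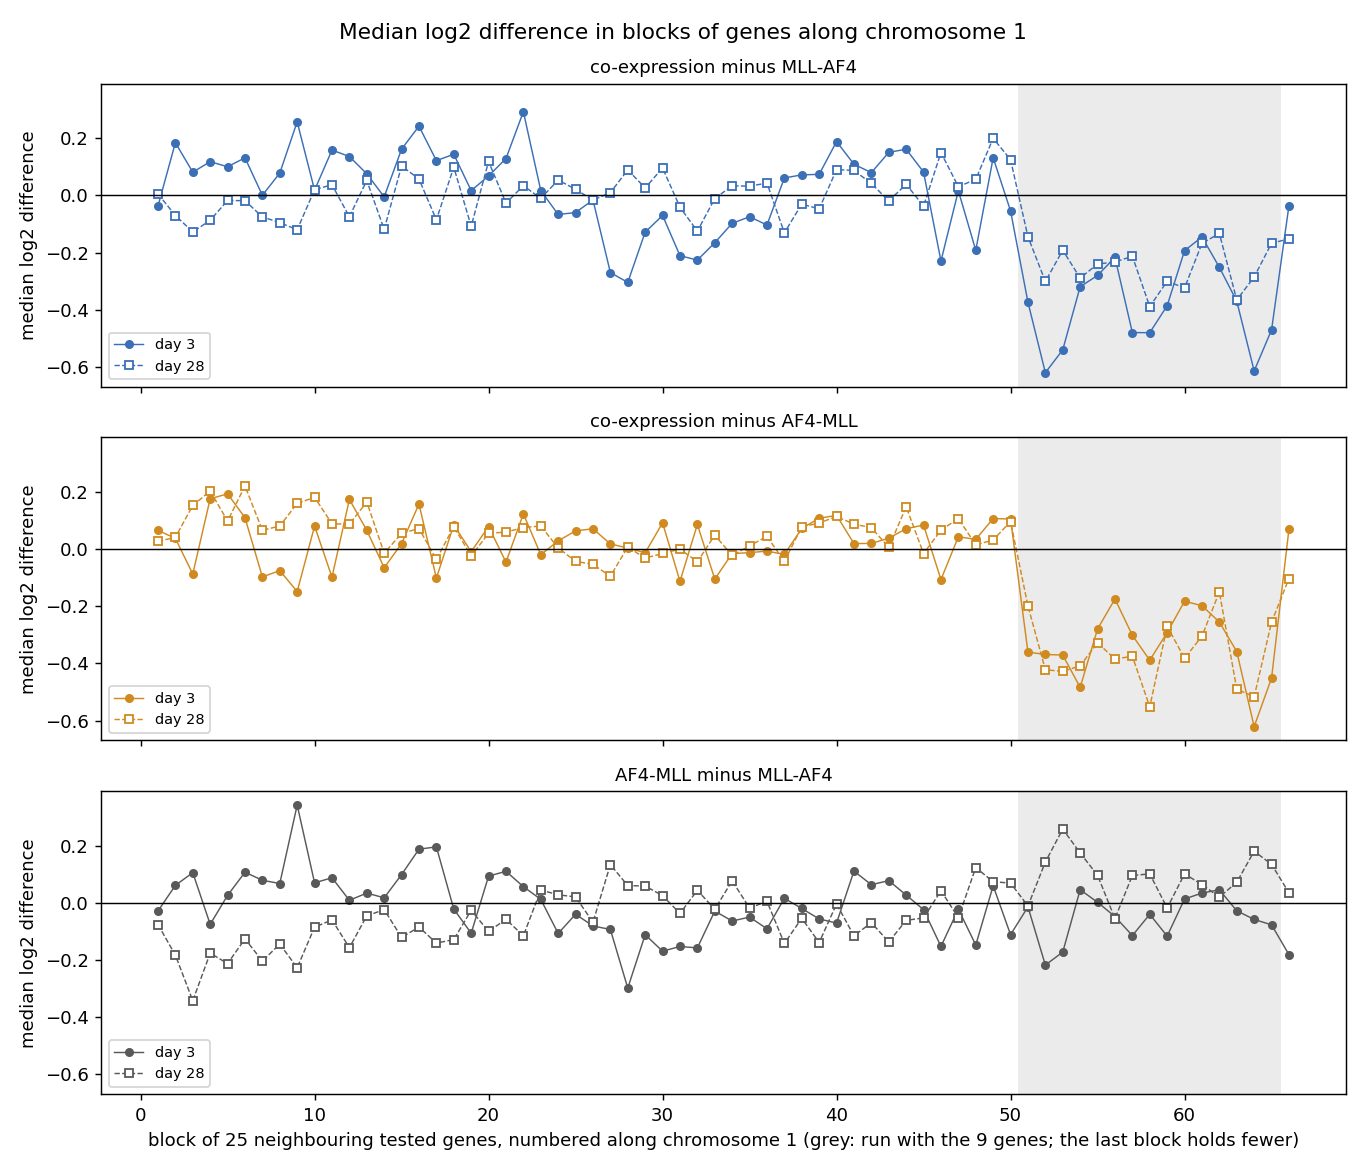
Median log2 difference (vertical axis) in blocks of 25 neighbouring tested genes, numbered along chromosome 1 (horizontal axis), for co-expression minus MLL-AF4, co-expression minus AF4-MLL and AF4-MLL minus MLL-AF4, with day 3 as filled and day 28 as open points. On grey, the 15 blocks around the 9 genes lie below 0 in both upper panels on both days, while in the lower panel they lie on both sides of 0, from −0.22 to 0.26.

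Summed over genes within each library, the 9 genes and the run were lower in every co-expression library than in all others. For the 9 genes this follows in part from their choice by lower counts in these libraries. The 9 genes together had 398, 339 and 383 CPM in the co-expression libraries of day 3 and 373, 380 and 383 CPM in those of day 28, against 468 to 579 CPM in the 12 single-fusion libraries. The whole run holds the 9 genes and was drawn from day 3 values. It had 8029 to 8229 CPM in the 6 co-expression libraries and 9531 to 10628 CPM in the other 12. The rest of chromosome 1, without nuclear copies of mitochondrial DNA, was slightly higher in co-expression libraries than in every single-fusion library of the same day. It had 28848 to 29520 against 28286 to 28682 CPM on day 3, and 29382 to 29658 against 28067 to 29213 CPM on day 28. The lower sums were thus found in the run and not over the rest of the chromosome. The sum over the run varied little within a group, with 8133 ± 100.3 CPM (SD, n = 3) on day 3 and 8081 ± 11.5 CPM on day 28 in co-expression cells. In bulk cells such a sum does not tell fewer cells with open DNA from less open DNA in each cell, and a count per gene depends on the number of DNA copies as well as on their accessibility, which was not tested.

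**Figure D4:**
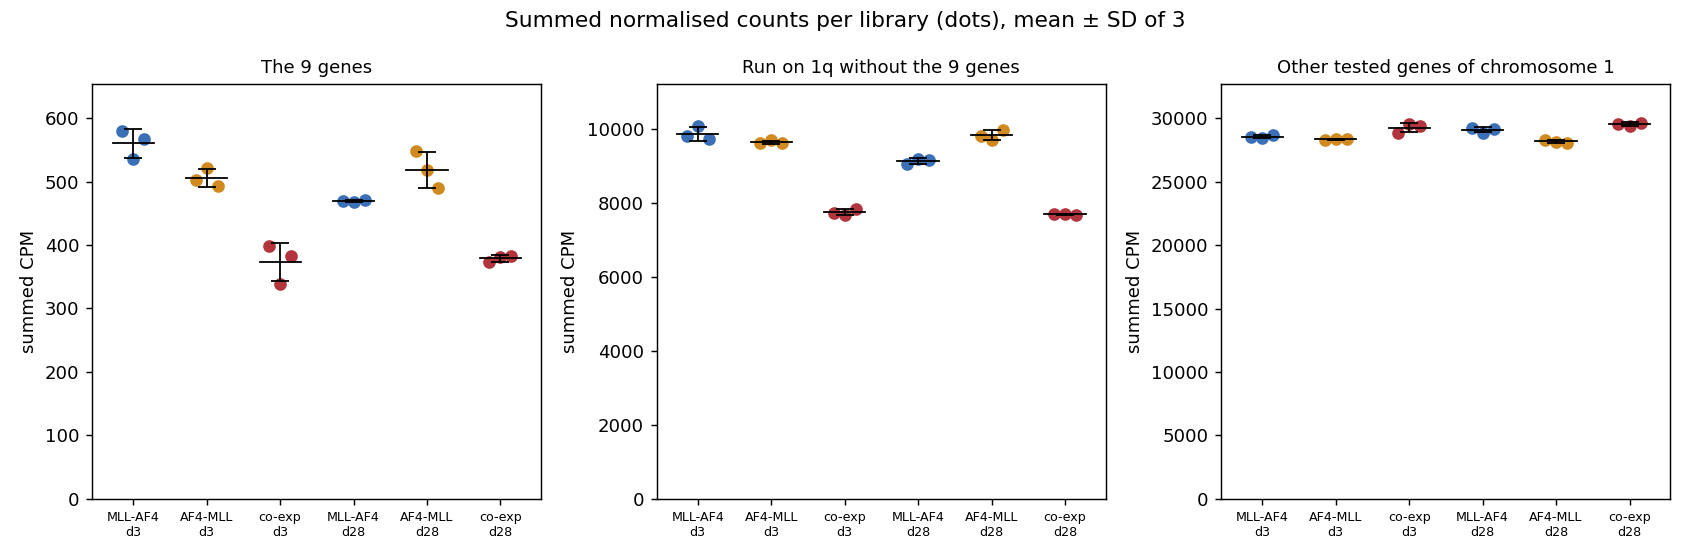
Summed CPM (vertical axes from 0) of the 9 genes, of the rest of the run around them and of the other tested genes of chromosome 1, with 1 dot per library and the mean ± SD of 3 libraries per group. In the first 2 panels the 6 co-expression libraries (red) lie below all others, at 339 to 398 CPM and 7686 to 7847 CPM. In the third they lie slightly above the single-fusion libraries of their own day.

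The comparisons that contain no difference between co-expression and single-fusion cells were tested. Between the 2 single-fusion settings, 0 of the 9 genes was called by edgeR on day 3 and 0 on day 28, and 0 by DESeq2 on either day. Of all genes tested, edgeR called 0.142% and 0.0793%. On day 3 the lowest adjusted p was 0.097, for CEP170, which was lower in AF4-MLL cells by −0.58 (SE 0.16) with all 3 libraries below those of MLL-AF4 cells. DESI2 differed by −0.37 (SE 0.13, adjusted p 0.29) and SMYD3 by −0.88 (SE 0.38, adjusted p 0.42). COX20 and HNRNPU differed by −0.10 (SE 0.14) and −0.01 (SE 0.12) on day 3 and by 0.15 (SE 0.12) and 0.13 (SE 0.11) on day 28. Over the run the median was −0.04 on day 3 and 0.10 on day 28, with 0 genes called on either day. Its blocks were below 0 in 10 of 15 on day 3, where 26 of 51 outside were, and in 3 of 15 on day 28, where 36 of 51 outside were. The sum over the run was 10224 to 10466 CPM in AF4-MLL cells and 9531 to 9676 CPM in MLL-AF4 cells on day 28, and on day 3 it was 10112 to 10221 CPM and 10297 to 10628 CPM. The single-fusion groups thus did not overlap in this sum on either day, with the higher sum in MLL-AF4 cells on day 3 and in AF4-MLL cells on day 28.

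From day 3 to day 28, DESI2 and CEP170 fell in MLL-AF4 cells, the 2 of the 9 that were called there, where 1.57% of all genes tested were called lower. DESI2 went from 131.8 ± 10.1 to 86.8 ± 9.12 CPM, a log2 change of −0.59 (SE 0.13, edgeR adjusted p 0.0015), and CEP170 from 77.1 ± 4.58 to 53.8 ± 2.93 CPM, a change of −0.52 (SE 0.15, adjusted p 0.033). In both genes the 3 libraries of day 28 lay below the 3 of day 3. The MLL-AF4 libraries of day 3 also entered the comparison by which these genes were chosen, and with DESeq2 CEP170 was called and DESI2 was not (adjusted p 0.071). The call of CEP170 was lost when any 1 of the 6 MLL-AF4 libraries was left out, with changes from −0.56 to −0.48. SMYD3 changed by −0.76 (SE 0.36, adjusted p 0.27), and COX20 and HNRNPU by −0.09 (SE 0.14) and −0.05 (SE 0.12).

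In AF4-MLL cells and in co-expression cells 0 of the 9 genes was called over time by edgeR or DESeq2, where edgeR called 0.606% of all genes tested in each setting. In co-expression cells, whose libraries also served in the choice of the genes, COX20 changed by 0.05 (SE 0.15, adjusted p 0.96), HNRNPU by −0.05 (SE 0.12, adjusted p 0.94) and DESI2 by −0.11 (SE 0.14, adjusted p 0.86). The range over the 9 genes was −0.31 for SMYD3 to 0.25 for SDCCAG8. In AF4-MLL cells it was −0.14 for KIF26B to 0.30 for SMYD3.

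The change over time was compared directly between the 2 single-fusion settings, and 0 of the 9 genes was called by edgeR or DESeq2, beside 0.317% of all genes tested. The largest differences were those of SMYD3, at 1.07 (SE 0.51, edgeR adjusted p 0.47), CEP170, at 0.68 (SE 0.21, adjusted p 0.15), and DESI2, at 0.49 (SE 0.18, adjusted p 0.28). Set against co-expression cells, the change of DESI2 over time was higher in co-expression than in MLL-AF4 cells by 0.49 (SE 0.19) and that of CEP170 by 0.60 (SE 0.21), values that combine the comparisons of the choice and carry no test. Against AF4-MLL cells the same values were −0.00 (SE 0.18) and −0.08 (SE 0.21).

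**Figure D5:**
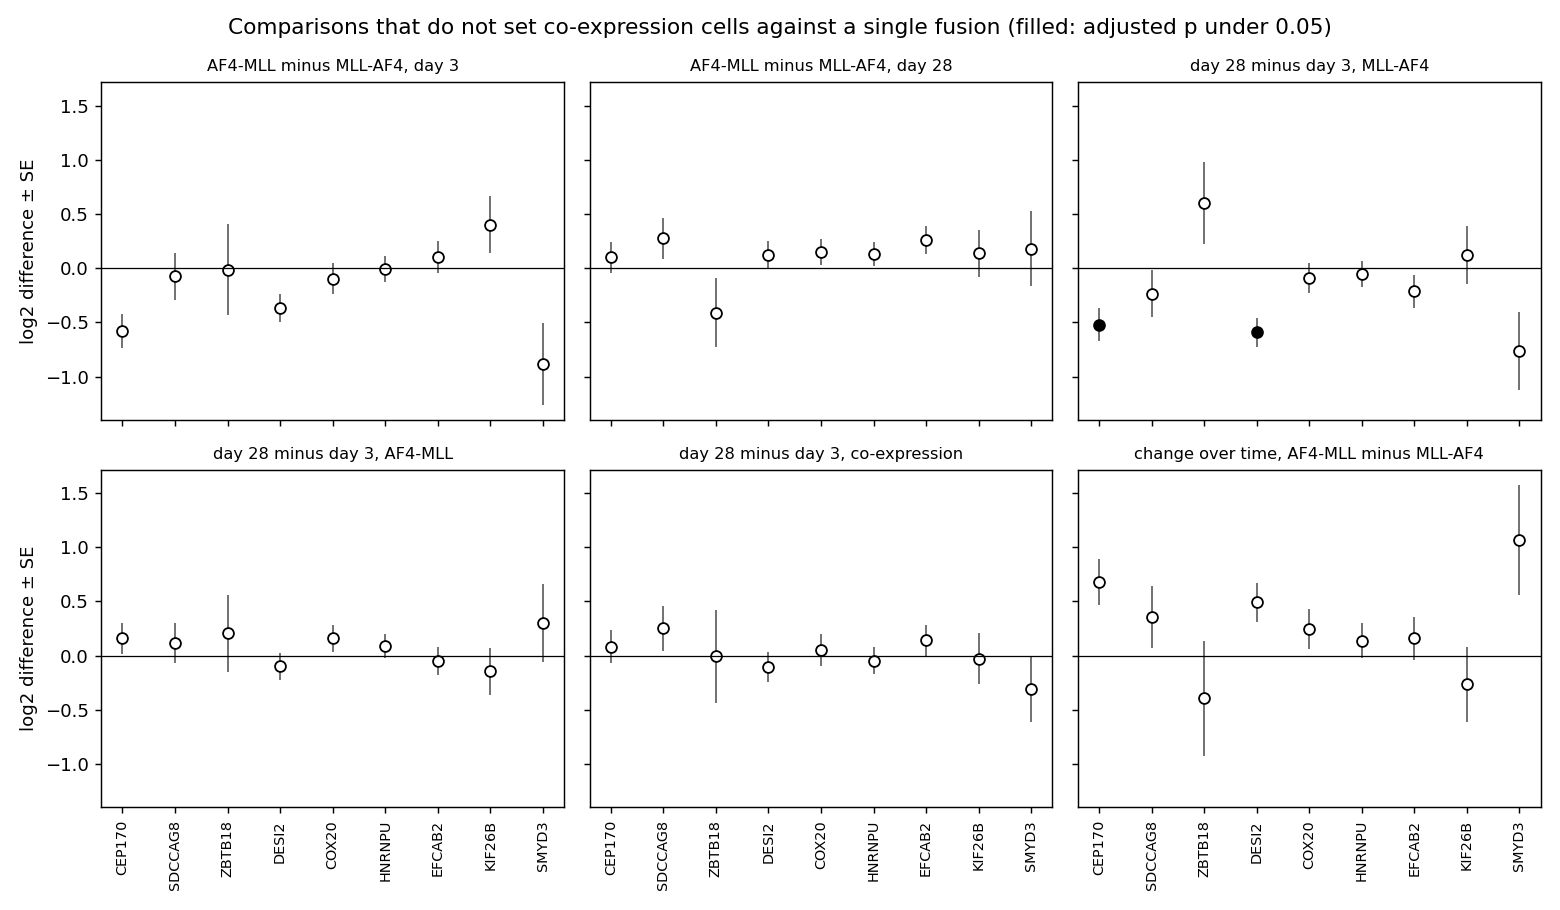
Log2 difference ± SE (vertical axis) of the 9 genes in the 6 comparisons that set no co-expression against single-fusion cells, with filled points at an edgeR adjusted p under 0.05. The filled points are DESI2 at −0.59 and CEP170 at −0.52 in MLL-AF4 cells from day 3 to day 28.

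Genes of related function outside the segment were set beside all genes tested. Of all genes, 0.906%, 0.798%, 0.753% and 0.991% were called lower in the 4 co-expression comparisons. With so small a share, few or no calls in such short lists say nothing particular about them. The lists were made without regard to position, so genes on chromosome 1, also in the run above, were not left out. Of 23 other complex IV assembly factors, 21 were tested, and their median differences in co-expression cells were 0.09 and −0.02 on day 3 and −0.04 and −0.10 on day 28, with 0 called. Of 8 other SUMO proteases 1 was called lower, against AF4-MLL cells on day 3, with medians from −0.21 to 0.02 over the 4 comparisons. The 8 centrosomal partners of CEP170 and SDCCAG8 had medians from −0.01 to 0.09 and 0 called. Of the 4 other SMYD genes 3 were tested, with 0 called and medians from −0.50 to −0.41. These medians rest on 3 genes and lie near those of the 9 genes on day 3.

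The pattern of DESI2 and COX20 over the 18 libraries was most alike in genes of several chromosomes. Over 6100 genes that averaged 30 counts or more, the highest Pearson correlations of log2 CPM with DESI2 were those of TMEFF2 on chromosome 2 (r = 0.838), AP000251.1 (r = 0.838) and USP22 on chromosome 17 (r = 0.818). With COX20 they were those of ZCCHC8 on chromosome 12 (r = 0.872), SPECC1 on chromosome 17 (r = 0.870) and RYR2 on chromosome 1 (r = 0.867). For HNRNPU, added after its values were seen, they were MYO15A (r = 0.889), MYBBP1A (r = 0.886) and SREBF1 (r = 0.876), all on chromosome 17. Within the segment the highest was that of COX20 with HNRNPU (r = 0.847), followed by DESI2 with COX20 (r = 0.771), and SMYD3 had r = −0.358 with COX20. These values describe the same 18 libraries, with their groups and depths in common.

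Reads from near-identical copies could add to 3 of the genes. The copies CEP170P1, COX20P1, COX20P2 and HNRNPUP1 had 0.771 to 6.51, 0 to 1.41, 0 to 4.12 and 0 to 1.40 CPM, and the antisense gene KIF26B-AS1, which shares its place with KIF26B, 0 to 4.62 CPM. Counts did not follow the length of the genes, since SMYD3, over 758 kb, averaged 13.9 counts per library, and COX20, over 9.76 kb, averaged 93.7.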

How the data were processed

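ATAC-seq was performed on 18 HEK293T libraries. The authors deposited raw counts, whole numbers of reads per gene for 54425 genes. The submitters' processing notes name GRCh38, bcl2fastq, Bowtie2 and HTSeq without versions. The counted region around a gene, duplicate removal and any offset for the transposase cut are not given in the sources used here, and the counted region decides whether promoter or body reads dominate. Groups came from the labels. All libraries were fitted together in edgeR 4.0.16 (R 4.3.3) with 6 groups, TMM normalisation, quasi-likelihood F tests and filterByExpr (at least 10 counts, 15 in total), and 17660 genes were tested with Benjamini-Hochberg adjustment. The biological coefficient of variation was 7.48%. SE is the log2 difference divided by the square root of F. RefSeq positions (GRCh38.p14) were matched by symbol or unambiguous synonym for 15483 tested genes (87.7%). The 9 genes, all lists and the naming of flanking genes (at most 5 called per comparison) were chosen with earlier results of these data known. Some markers and flanking genes of these lists are not reported here. DESeq2 1.42.0 and other settings served as alternatives. The code was tested on simulated data. No pair of libraries was identical. Intervals and SE cover these libraries only.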

Additional observations from a re-analysis of the deposited data

How the results depend on the processing

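Alternatives were DESeq2's size factors, library size without TMM, leaving out mitochondrial genes, no filter, a mean of at least 30 counts, DESeq2's Wald test, the replicate number as a block, and each library left out in turn. With library size only, the genes called among the 9 numbered 1, 0 and 0 for co-expression against MLL-AF4 on day 3, against AF4-MLL on day 3 and against MLL-AF4 on day 28, and 8, 8 and 9 over time in MLL-AF4, AF4-MLL and co-expression cells, where 11402, 15431 and 15512 of all 17660 genes were called lower. In the same 3 co-expression comparisons that setting called 38, 62 and 77 of all genes lower. It moved the median of all genes by −0.87, −1.06 and −1.07 over time. On that scale, with the shift not taken off, the values over time that turned negative were −0.28 and −0.75 (ZBTB18 and KIF26B, MLL-AF4), −0.89, −0.93, −0.85, −0.92 and −0.97 (CEP170, SDCCAG8, ZBTB18, COX20 and HNRNPU, AF4-MLL), and −0.97, −0.78, −1.01 and −0.92 (CEP170, SDCCAG8, COX20 and EFCAB2, co-expression). It also turned the run's median between the single fusions on day 3 to 0.11, and no filter turned it to 0.043.

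With no filter the counts for the first 3 comparisons were 2, 0 and 0, and 1 over time in MLL-AF4 cells. With a mean of at least 30 counts, 1 gene was called between the single fusions on day 3. DESeq2 called 1 gene against AF4-MLL on day 3, 0 against MLL-AF4 on day 28 and 1 over time in MLL-AF4 cells, where it called 21, 16 and 156 of all genes lower. The cause was not tested. Leaving out 1 library gave 3 to 4, 0 to 2, 0 to 2 and 2 to 3 genes called in the 4 co-expression comparisons, 1 over time in MLL-AF4 cells and 0 in the other 5 comparisons. CEP170 against AF4-MLL on day 3 ran from −0.23 to 0.014, the latter without AF4-MLL day 3 replicate 1. Directions were judged only where the value exceeded its SE or was called.

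Of the 12 calls in the co-expression comparisons, 3 were made under each of 13 alternatives and 9 were lost under some. The run's median stayed negative in all 13 alternatives in each co-expression comparison, from −0.39 to −0.24, −0.34 to −0.27, −0.31 to −0.21 and −0.42 to −0.35. This value was added after seeing the data. The run was drawn from block medians below 0 against AF4-MLL cells on day 3, and the alternatives kept its genes and these libraries. Its negative sign was thus set at least in part by that choice and is a description. Same-numbered libraries did not deviate together (45 correlations, −0.0915 to 0.0374, and 2 of 18 libraries correlated best with their own number). With the replicate block 4, 3, 2 and 3 genes were called in the co-expression comparisons, 2 over time in MLL-AF4 cells and 0 elsewhere. In the co-expression comparisons 148, 135, 116 and 159 of all genes were then called lower. ZBTB18 and SMYD3, at 3 to 28 and 4 to 27 counts per library, are limited by depth.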
